A study of Rattus norvegicus with 20 samples.

Results

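This account covers 10 immediate early genes of neuronal activity in rat brain: the transcription factor genes Fos, Fosb, Junb, Jun, Egr1, Egr2, Nr4a1 and Nr4a3, the synaptic gene Arc and the phosphatase gene Dusp1. They were found as the probe sets annotated to one of these genes alone, which gave 17 of the 31042 probe sets that are not controls. Of the 10 genes, 5 had 1 probe set, 3 had 2 and 2 (Jun and Nr4a3) had 3. Each gene is given by its brightest probe set, and the values of the others follow where they bear on it. The brightest probe set of 8 genes lay above the filter on low values (a mean log2 signal over 6.62), while those of Fosb and Egr2 did not and were read from a fit of all 31042 probe sets.

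Of the 20 male Sprague Dawley rats, 20 weeks old and 250 to 300 g, 10 breathed 2% isoflurane (1.4 MAC, the unit of anaesthetic potency) in oxygen for 15 minutes, and 10 breathed oxygen alone for the same time. All were left to recover for 6 hours before tissue labelled brain cortex was taken, and 1 Affymetrix array was made per rat. No rat without gas exposure is among the 20, so handling and oxygen are common to both groups. Each of the 10 arrays of a group is from a separate animal. The arrays of a group also differ in tissue, as described below, so their spread is not that between animals alone.

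Immediate early genes are transcribed within minutes of synaptic activity or growth factor signalling, without new protein synthesis, through factors such as CREB and SRF that are already bound to their promoters. Fos and Jun family proteins pair as the AP-1 transcription factor, Egr1 and Egr2 are zinc finger factors, and Nr4a1 and Nr4a3 are orphan nuclear receptors. Arc protein acts at the synapse in the removal of AMPA receptors, and Dusp1 dephosphorylates MAP kinases and so feeds back on the pathway that induces these genes. Their transcripts are short-lived, and in forebrain neurons their levels are widely read as a trace of recent activity.

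The RefSeq promoter table (build GRCr8) held 6 of the 10 genes: Dusp1, Egr1, Egr2, Fosb, Junb and Nr4a1. Those of 5 genes are printed here as the 250 bases before the start of the gene, 5′ to 3′ on the gene's strand. They were chosen because they hold letters that CREB or SRF is known to bind. A relation of these letters to the signal on the arrays was not tested. Capitals mark the CRE half-site (TGACG, or CGTCA on the other strand) and the CArG box, the motif of SRF.
Egr1, chr18:26736828-26737077, plus strand: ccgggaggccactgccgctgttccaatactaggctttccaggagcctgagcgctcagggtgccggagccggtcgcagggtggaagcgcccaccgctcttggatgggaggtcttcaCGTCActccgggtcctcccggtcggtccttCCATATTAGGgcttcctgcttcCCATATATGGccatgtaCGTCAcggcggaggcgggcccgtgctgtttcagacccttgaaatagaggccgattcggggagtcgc
Egr2, chr20:21054442-21054691, minus strand: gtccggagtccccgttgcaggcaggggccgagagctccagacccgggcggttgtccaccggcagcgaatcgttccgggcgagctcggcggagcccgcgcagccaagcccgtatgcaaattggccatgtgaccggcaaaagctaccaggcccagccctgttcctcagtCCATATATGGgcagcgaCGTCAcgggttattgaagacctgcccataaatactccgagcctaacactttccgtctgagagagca
Nr4a1, chr7:134259888-134260137, plus strand: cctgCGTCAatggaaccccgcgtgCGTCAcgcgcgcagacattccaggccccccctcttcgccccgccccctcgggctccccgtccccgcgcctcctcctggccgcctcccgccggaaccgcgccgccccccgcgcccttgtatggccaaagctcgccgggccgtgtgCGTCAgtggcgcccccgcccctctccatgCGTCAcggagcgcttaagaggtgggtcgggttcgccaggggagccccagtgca
Junb, chr19:40080876-40081125, plus strand: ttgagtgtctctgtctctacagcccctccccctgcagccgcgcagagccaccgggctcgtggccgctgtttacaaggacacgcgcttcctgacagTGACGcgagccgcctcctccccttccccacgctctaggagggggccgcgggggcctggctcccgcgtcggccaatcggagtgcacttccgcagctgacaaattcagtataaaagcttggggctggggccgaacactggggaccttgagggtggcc
Dusp1, chr10:17184603-17184852, plus strand: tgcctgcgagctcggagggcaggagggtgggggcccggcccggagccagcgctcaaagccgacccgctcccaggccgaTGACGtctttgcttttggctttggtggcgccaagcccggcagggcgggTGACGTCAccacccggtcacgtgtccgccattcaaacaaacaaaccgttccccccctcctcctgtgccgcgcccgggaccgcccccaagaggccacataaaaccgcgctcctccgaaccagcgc
A half-site was found in 5 of the 6 promoters, against 18.2% of all 33469 promoters of that length in the table. Nr4a1 held 4, Dusp1 3, of which 2 are the overlapping strands of one full CRE (TGACGTCA), Egr1 2, and Egr2 and Junb 1 each. Egr1 held 2 CArG boxes and Egr2 1, a motif in 1.5% of all promoters. The full CRE was in 1 of the 6 (1.59% of all), the EGR motif GCGNGGGCG (either strand) in Nr4a1 alone (4.29% of all) and the AP-1 motif TGANTCA in none (6.34% of all). Such matches describe these 250 bases and do not show that a factor is bound.

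The arrays fell into 2 sets by tissue, and this bears on every result below. On 11 arrays (isoflurane replicates 1, 3, 7, 8 and 9, oxygen replicates 5 to 10) Pcp2, which is made in the Purkinje cells of the cerebellum, had a log2 signal above 12, and on 9 (isoflurane replicates 2, 4, 5, 6 and 10, oxygen replicates 1 to 4) it was below. They are called Pcp2-high and Pcp2-low. The mean log2 signal of 9 cerebellar markers lay between 12.5 and 12.9 on all Pcp2-high arrays, and between 6.75 and 9.88 on the Pcp2-low arrays. Pcp2, by which the sets were made, is itself among the 9, so part of that gap follows from the rule. The mean log2 signal of 10 cortical markers lay between 6.94 and 8.99 on Pcp2-high arrays and between 10.24 and 10.64 on Pcp2-low arrays. The label brain cortex thus goes against the markers of the Pcp2-high arrays. The mean log2 signal of 5 striatal markers was 8.11 to 9.07 on Pcp2-high and 10.09 to 11.12 on Pcp2-low arrays, highest on isoflurane replicate 10. The Pcp2-low arrays are thus not shown to be cortex alone. Within the Pcp2-low set, isoflurane replicates 2, 4, 5 and 6 stood apart. They correlated at 0.976 to 0.982 with each other and at 0.855 to 0.922 with the other 5, their log2 3′/5′ ratio of beta-actin, a measure of RNA length, was 2.30 to 2.86 against 1.09 to 1.98 on the remaining 16 arrays, and their Pcp2 was 4.46 to 5.93 against 7.63 to 8.78 on the oxygen arrays of the set. Results that rest on these 4 arrays are given with and without them. In such bulk samples, fewer cells of a type and less RNA per cell cannot be told apart.

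Most of the 10 genes had lower signal on Pcp2-high than on Pcp2-low arrays, led by Fosb, Egr2, Nr4a3 and Egr1. Since the sets were made from a measured gene, this is a description with no test. The Pcp2-high minus Pcp2-low difference in mean log2 signal was negative for 9 of the 10 genes, with a median of -1.25 against 0.10 over all probe sets above the filter. For 4 genes every Pcp2-high array lay below every Pcp2-low array, where 6.49% of all 31042 probe sets did so and 9.34% of the 18625 above the filter.

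Egr1, an early factor of synaptic plasticity, parted the sets without overlap. Its signal was 1263, 929, 1167, 829.8 and 1545 on the isoflurane Pcp2-high arrays (replicates 1, 3, 7, 8 and 9), and its lowest, median and highest were 1226, 1448 and 2059.8 on the 6 oxygen Pcp2-high arrays. On Pcp2-low arrays it was 5238, 6779, 6063, 4763 and 3944 after isoflurane (replicates 2, 4, 5, 6 and 10) and 4403, 5082, 5548 and 6251 after oxygen (replicates 1 to 4). The lowest Pcp2-low array was thus above the highest Pcp2-high array, and the mean log2 signal was 10.35 ± 0.36 (SD, n = 11) on Pcp2-high and 12.36 ± 0.25 (SD, n = 9) on Pcp2-low arrays, a difference of -2.01.

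Egr2, a zinc finger factor of the same family that also directs Schwann cell myelination, differed by -2.74. It read 24.7 to 50.7 after isoflurane and 26.2 to 66.4 after oxygen on Pcp2-high arrays, levels near the low end of the array, against 159.6 to 375 and 167 to 587 on Pcp2-low arrays. Fosb, a partner of Jun proteins whose truncated form persists after repeated stimulation, had a measured difference of -3.45. Its signal was 1.90 to 33.6 after isoflurane and 6.14 to 29.8 after oxygen on Pcp2-high arrays, and 92.6 to 195 and 158 to 239 on Pcp2-low arrays. On all 11 Pcp2-high arrays both genes read below the level of the filter on low values, and no detection call was used here, so the sizes of these 2 differences are uncertain. The second probe set of Egr2, dim throughout, differed by -0.92 with overlap.

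Nr4a3, an orphan nuclear receptor induced by neuronal activity, differed by -2.28 between the sets, and within the Pcp2-low set between the treatments. Its signal was 76.2, 187, 95.6, 149 and 160.4 on isoflurane Pcp2-high arrays and 85.3, 169 and 279.8 (lowest, median, highest) on the 6 oxygen Pcp2-high arrays. It was 514, 489, 636, 442 and 513 on isoflurane Pcp2-low arrays and 908, 1027, 1174 and 952 on oxygen Pcp2-low arrays. The oxygen Pcp2-low arrays were highest and the isoflurane Pcp2-low arrays next, with no overlap, while both Pcp2-high groups were lowest and overlapped each other. A second probe set of Nr4a3 also parted the sets (-1.995), and the remaining one, below the filter, did not (-0.60).

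A further 5 genes were lower by less, with sets that overlapped. Arc differed by -1.39, Nr4a1, the receptor also called Nur77, by -1.10, Fos by -0.99, Junb, a Jun protein that tempers AP-1 activity in some settings, by -0.88, and Dusp1 by -0.13. For 2 of these genes the probe sets disagreed in sign: the second one of Dusp1, above the filter, was higher on Pcp2-high arrays by 0.78, and that of Fos, below it, by 0.66, each with overlap. Arc was even across the Pcp2-high arrays, at 224 to 280.2 after isoflurane and 275 to 394 after oxygen, and wide across the Pcp2-low arrays, at 297 to 884 and 431 to 2229.6. The SD of its log2 signal was 0.22 over Pcp2-high and 0.84 over Pcp2-low arrays.
Fos spread widely in both sets. Its signal was 346, 159.8, 712, 169 and 132 on isoflurane Pcp2-high arrays and 161, 282 and 1546 (lowest, median, highest) on the oxygen ones, so that oxygen replicate 5 alone exceeded every Pcp2-low array. On Pcp2-low arrays it was 666, 822, 352, 603 and 394 after isoflurane and 226, 589, 776 and 1334 after oxygen.
Jun, the AP-1 partner of Fos, went the other way by 0.34, and 2 further Jun probe sets by 0.29 and 0.24, each with overlapping sets.

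Within each labelled group the picture was close to that of all arrays. Among isoflurane arrays 6 genes were lower on Pcp2-high arrays with no overlap (Fosb, Egr2, Nr4a3, Egr1, Arc and Nr4a1), where 12.8% of all probe sets were, and Jun was higher with none, where 13.2% were. Among oxygen arrays 6 were lower with no overlap (Fosb, Egr2, Nr4a3, Egr1, Arc and Junb), where 10.6% of all probe sets were.

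**Figure D1:**
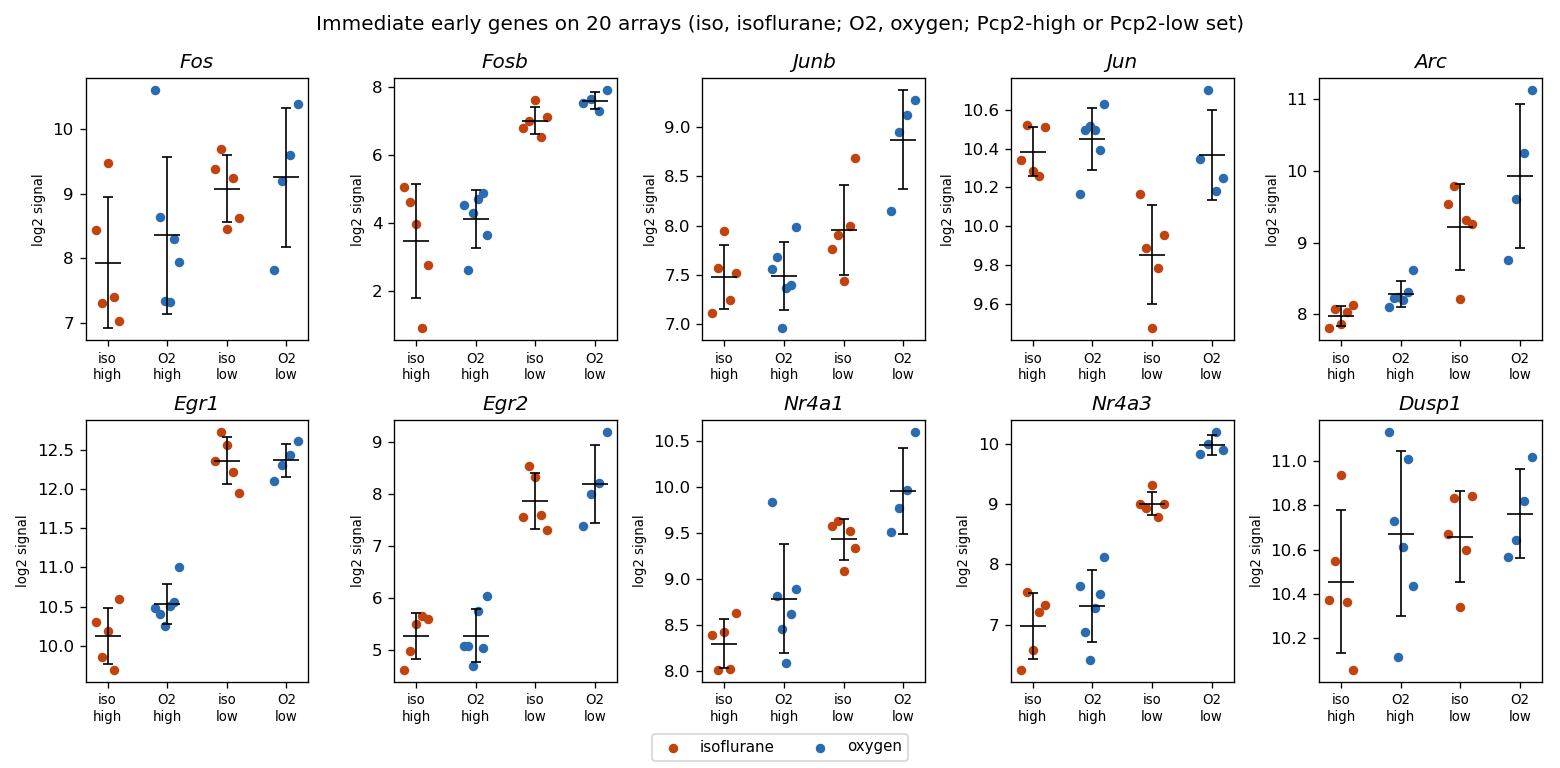
Log2 signal (y axis) of the brightest probe set of each of the 10 genes on 20 arrays, 1 point per array, in 4 groups on the x axis: isoflurane and oxygen on Pcp2-high arrays, then isoflurane and oxygen on Pcp2-low arrays, with bars for mean ± SD. Egr1, Egr2, Fosb and Nr4a3 lie lower on every Pcp2-high than on every Pcp2-low array, and in Pcp2-low arrays Nr4a3 and Jun after isoflurane lie below oxygen with no overlap.

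Over all 20 arrays, with the set in the model, none of the immediate early genes passed the threshold 6 hours after isoflurane, although every one was lower on average. By limma with Benjamini-Hochberg adjustment, 0 of the 8 genes tested had an adjusted p under 0.05, where 7.37% of all 18625 probe sets did (4.79% lower). At an unadjusted p under 0.05, 5 of the 8 were lower (Junb, Jun, Arc, Nr4a1 and Nr4a3), where 14.0% of all probe sets were. Of the other probe sets of Jun, one was higher (0.28 ± 0.11 SE, p = 0.0146, adjusted p = 0.0969) and one had 0.05 ± 0.08 SE. By the brightest probe set the change was negative for all 10 genes, with a median of -0.37 in log2 terms against 0.00 over all probe sets tested. The sign of Jun turned with the mean of its 3 probe sets (0.02) and that of Egr2 without the set in the model (0.12) or with the cortical marker mean in it (0.01).

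The nuclear receptors were nearest the threshold. Nr4a3 changed by -0.62 ± 0.20 SE (adjusted p = 0.0584) and Nr4a1 by -0.51 ± 0.17 SE (adjusted p = 0.0725). The other values were -0.27 ± 0.10 SE for Jun (adjusted p = 0.0915), -0.49 ± 0.22 SE for Arc (0.166) and -0.42 ± 0.20 SE for Junb (0.172). Fos had -0.31 with a 95% interval from -1.14 to 0.51. Egr1 had -0.23 (interval -0.49 to 0.04), Dusp1 -0.17 (-0.42 to 0.09), Fosb -0.62 (-1.47 to 0.23) and Egr2 -0.15 (-0.65 to 0.35), the last 2 in the fit without the filter. The second probe set of Dusp1 had -0.54 ± 0.23 SE (p = 0.0323, adjusted p = 0.147), and in the fit without the filter those of Fos and Egr2 had -0.34 ± 0.40 SE and -0.67 ± 0.50 SE. Nr4a3 passed with 1 array left out (oxygen 6, adjusted p = 0.0392, oxygen 7, 0.0242, isoflurane 3, 0.0436, or isoflurane 9, 0.0269), Nr4a1 without oxygen 8 (0.0396) or isoflurane 9 (0.0422) and Jun without isoflurane 9 (0.0489).

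In the Pcp2-low arrays, where cortical and striatal markers were high, Jun, Junb and Nr4a3 fell after isoflurane. These were 3 of the 8 genes tested, where 10.9% of all probe sets fell and 14.1% rose, or 25.0% in either direction. With each array centred on its median, which moves the median change of all probe sets to -0.21, 1709 rose and 5125 fell in place of 2617 and 2038, and Arc (-0.92, adjusted p = 0.0415) and Nr4a1 (-0.74, adjusted p = 0.0401) passed as well. For 2 of the 10 genes, Jun and Nr4a3, every isoflurane array was below every oxygen array, as for 4.36% of all 31042 probe sets.

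Nr4a3 changed by -0.97 ± 0.28 SE in log2 terms (adjusted p = 0.0155), 1.96-fold lower, with means of 9.01 ± 0.19 (SD, n = 5) after isoflurane and 9.98 ± 0.16 (SD, n = 4) after oxygen. All 5 isoflurane arrays, replicate 10 among them, lay below all 4 oxygen arrays in the values given above. Its second probe set changed by -0.60 ± 0.27 SE (adjusted p = 0.112), the remaining, dim one by 0.50 ± 0.44 SE.

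Junb read 217, 240.2, 173, 256 and 411 on isoflurane replicates 2, 4, 5, 6 and 10, against 284, 494, 556 and 619.8 on oxygen replicates 1 to 4. The 4 isoflurane arrays that stood apart were below all oxygen arrays, whereas replicate 10 was above oxygen replicate 1. The change was -0.92 ± 0.26 SE (adjusted p = 0.0132), 1.89-fold lower, and it missed the threshold without oxygen replicate 4 (-0.78, adjusted p = 0.0561).

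Jun read 1149, 946, 711, 882 and 993 on the isoflurane arrays, against 1300.0, 1664, 1161 and 1215 on the oxygen arrays. The groups were parted by a narrow gap between 1149 and 1161. The change was -0.52 ± 0.13 SE (adjusted p = 0.00674), 1.43-fold lower. The other 2 probe sets of Jun did not follow it, at 0.07 ± 0.11 SE (adjusted p = 0.7) and 0.38 ± 0.16 SE (adjusted p = 0.0863), and with the mean of the 3 the value was -0.02 (adjusted p = 0.89). The fall of Jun is thus a result of 1 of 3 probe sets, and that of Nr4a3 likewise missed the threshold with the mean of its 3 (-0.36, adjusted p = 0.254).

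Most isoflurane arrays behind the calls in Pcp2-low arrays were replicates 2, 4, 5 and 6. Without them, 1 isoflurane array is left in the set, so that fit cannot decide whether the calls rested on them. Nr4a3 was then -0.98 and Jun -0.41, about as large as before, while Junb was -0.19. With the beta-actin 3′/5′ ratio in the model, which is highest on the same 4 arrays, Junb was -0.72 (adjusted p = 0.134) and Jun -0.46 (adjusted p = 0.0648), and Nr4a3 kept its call at -1.08 (adjusted p = 0.0492). With the Gapdh ratio, 0.24 to 0.33 on these 4 arrays, Nr4a3 was -0.89 (adjusted p = 0.0517). With the cortical marker mean, which ran from 10.24 to 10.46 after isoflurane and from 10.51 to 10.64 after oxygen, all 3 kept their calls (Jun -0.50, Junb -0.89, Nr4a3 -0.88, adjusted p 0.0106, 0.02 and 0.0166). This mean joins markers that moved in opposite directions, so it does not adjust for each of them. Rorb was 9.01 to 10.23 after isoflurane against 7.24 to 8.55 after oxygen. Neurod6 (9.77 to 10.30 against 10.86 to 10.92), Slc17a7 (11.31 to 11.72 against 12.09 to 13.06) and Emx1 were lower with no overlap, and the other cortical markers overlapped. The cerebellar marker mean was 6.75 to 7.21 on the 4 isoflurane arrays and 9.88 on replicate 10, against 7.88 to 8.76 on the oxygen arrays, and its part in these results was not tested. Markers of some other cell types moved with the treatment in this set too. The mean log2 signal of 6 of 6 markers of meninges and mural cells was 7.68 to 7.93 after isoflurane, replicate 10 included, against 8.11 to 8.83 after oxygen, with no overlap. That of 4 of 4 astrocyte markers was 11.62 to 11.98 against 11.96 to 12.32. Among the single markers of these 2 lists, only Islr and Col1a1 parted the treatments without overlap. The means of the endothelial, microglial, oligodendrocyte, striatal, choroid plexus and blood markers overlapped between the treatments. The part of these cell types in the falls of Jun, Junb and Nr4a3 was not tested.

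The other 7 genes did not pass in Pcp2-low arrays. Arc, at 739.6, 884, 297, 639.5 and 611 after isoflurane against 431, 781, 1218 and 2229.6 after oxygen, had -0.71 ± 0.33 SE (adjusted p = 0.121). The groups overlapped, and without oxygen replicate 1 the value was -1.11 (adjusted p = 0.00835). Nr4a1, at 763, 792, 543, 736 and 648 after isoflurane against 728, 875, 999 and 1554 after oxygen, had -0.53 ± 0.26 SE (adjusted p = 0.145). All 5 isoflurane arrays were below 3 of the 4 oxygen arrays, but not below oxygen replicate 1. Fos (-0.18, 95% interval -1.42 to 1.07), Fosb (-0.59, -1.87 to 0.70) and Egr2 (-0.33, -1.08 to 0.43) had intervals that allow changes of more than 1 on the log2 scale. Egr1 (0.00, -0.38 to 0.37) and Dusp1 (-0.10, -0.49 to 0.28) had narrower intervals, and with quantile normalization the value of Egr1 was 0.05. The second probe set of Dusp1 lay outside that interval, at -0.73 ± 0.35 SE (adjusted p = 0.133), so the 2 probe sets of this gene disagree in size.

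In the Pcp2-high arrays, whose markers were cerebellar, no immediate early gene passed after isoflurane, and none had groups without overlap, where 0.818% of all 31042 probe sets did. No probe set of the 18625 passed there by limma (0.0% called), while 2351 (12.6%) had an unadjusted p under 0.05. Among the brightest probe sets the nearest was that of Egr1. This gene read 1263, 929, 1167, 829.8 and 1545 after isoflurane against 1226, 1448 and 2059.8 (lowest, median, highest) after oxygen. It changed by -0.41 ± 0.16 SE (p = 0.0198, adjusted p = 0.331), with 3 of 5 isoflurane arrays below every oxygen array, and with array weights it passed (-0.48, adjusted p = 0.0221). Nr4a1 had -0.49 ± 0.24 SE (adjusted p = 0.4), Arc -0.30 ± 0.30 SE (adjusted p = 0.684) and Nr4a3 -0.33 ± 0.25 SE (adjusted p = 0.596). Junb (-0.02) and Egr2 (-0.01) were near 0, and Junb turned positive with quantile normalization and Egr2 and Junb with arrays centred on their medians. Fos (-0.43), Fosb (-0.65), Dusp1 (-0.22) and Jun (-0.07) had an adjusted p of 0.594 or more. By the brightest probe set all 10 values were negative in the scaling used, with a median of -0.31 against 0.00 over all probe sets tested. The other probe sets of Jun were higher (0.04 and 0.21), the second ones of Nr4a3 and Dusp1 lower (-0.37 and -0.38). In the limma fit without the filter the dim one of Nr4a3 had -1.13 ± 0.40 SE (p = 0.00932, adjusted p = 0.37). Those of Egr2 and Fos had -1.08 ± 0.68 SE and -0.22 ± 0.54 SE there.

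Whether isoflurane acted differently in the 2 sets was tested by the interaction. The change of Junb in Pcp2-high minus that in Pcp2-low arrays was 0.90 ± 0.35 SE (adjusted p = 0.0997), that of Jun 0.45 ± 0.17 SE (adjusted p = 0.102) and that of Nr4a3 0.64 ± 0.38 SE (adjusted p = 0.274). The other probe sets of Jun did not share its difference, at -0.03 ± 0.15 SE and -0.17 ± 0.21 SE. The second one of Nr4a3 had 0.22 ± 0.36 SE. Its dim one went the other way in the limma fit without the filter, at -1.63 ± 0.59 SE (adjusted p = 0.0994). No member passed, where 10.2% of all probe sets did. The falls in Pcp2-low arrays are thus not shown to differ from the changes in Pcp2-high arrays. Junb passed without oxygen replicate 1 (1.14, adjusted p = 0.0236) or isoflurane replicate 10 (1.08, adjusted p = 0.0193).

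**Figure D2:**
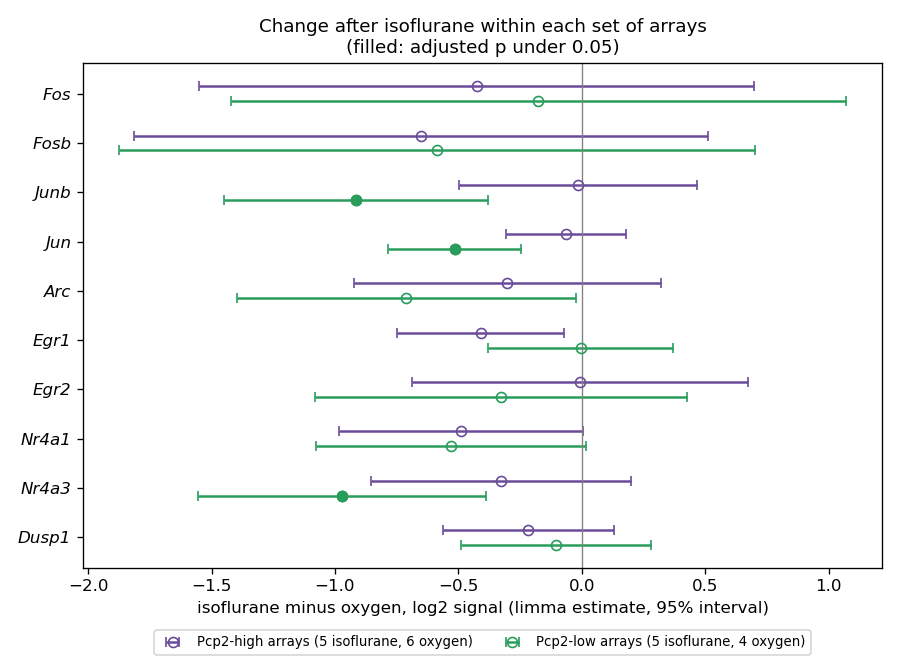
Change after isoflurane (x axis, isoflurane minus oxygen in log2 signal, limma estimate with 95% interval) of each gene (y axis), in Pcp2-high arrays (upper, 5 isoflurane and 6 oxygen) and Pcp2-low arrays (lower, 5 isoflurane and 4 oxygen), with filled points for an adjusted p under 0.05. Only Junb, Jun and Nr4a3 in Pcp2-low arrays are filled, and the intervals of Fos and Fosb are the widest.

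**Figure D3:**
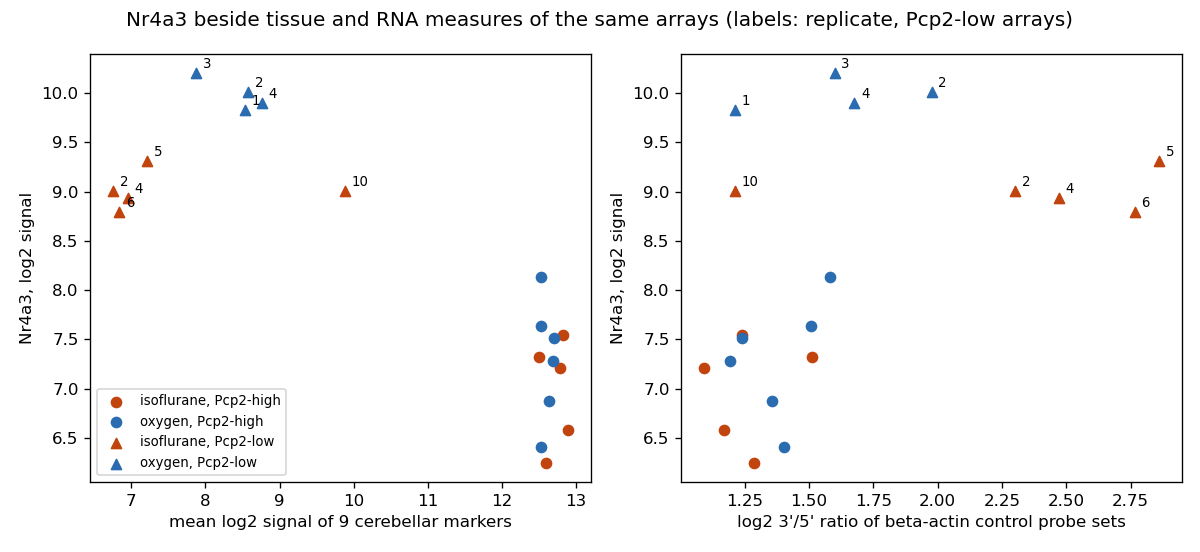
Log2 signal of Nr4a3 (y axis) on each of 20 arrays against the mean log2 signal of 9 cerebellar markers (left) and the log2 3′/5′ ratio of the beta-actin control probe sets (right), in isoflurane and oxygen arrays of the Pcp2-high (circles) and Pcp2-low (triangles) sets, with replicate numbers on Pcp2-low arrays. Pcp2, by which the sets were made, is among the 9 markers. Isoflurane replicates 2, 4, 5 and 6 lie at the lowest cerebellar markers and the highest ratios and replicate 10 does not. All 5 lie below the 4 oxygen arrays of the set.

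Across arrays of 1 set, the relations of Fos that passed were with Arc in the Pcp2-low arrays and with Dusp1 in the Pcp2-high arrays. Of the 18 pairs of Fos with another member in a set, 2 had an adjusted p under 0.05 for Pearson's r. Fos was set against members only, so the share of all probe sets that follow it as closely is not known. Values were not centred by treatment, and all genes of an array share its RNA quality and scaling. The 2 pairs are thus not shown to be particular to these genes. Over the 9 Pcp2-low arrays Fos and Arc had r = 0.889 (exact permutation test, two-sided, p = 0.00226, adjusted p = 0.0215) and Spearman's rho = 0.917 (exact permutation p = 0.00131, adjusted p = 0.0236). Oxygen replicate 4 was highest in both, oxygen replicate 1 and isoflurane replicate 5 held the 2 lowest values of each, and without oxygen replicates 1 and 4, the 2 arrays farthest from the median of Fos, r was 0.865. The Fos signal of the 4 isoflurane arrays that stood apart, 352 to 822, lay within the range of the oxygen arrays. Without them 5 arrays remain, too few for a correlation.

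Over the 11 Pcp2-high arrays Fos and Dusp1 had r = 0.793 (permutation test with 100000 resamples, two-sided, p = 0.00239, adjusted p = 0.0215) and rho = 0.691 (permutation p = 0.0223, adjusted p = 0.133). Without oxygen replicate 5 and isoflurane replicate 7, the 2 arrays with the most Fos, r was 0.6. In the Pcp2-low arrays Fos and Dusp1 had r = 0.708 (exact permutation p = 0.0337, adjusted p = 0.0865) and rho = 0.717, and a difference between the sets was not tested. Nr4a1 came next in both sets (r = 0.745 in Pcp2-high and 0.778 in Pcp2-low arrays, permutation tests, exact for the 9 arrays, adjusted p = 0.0673 for each). Jun ran against Fos in the Pcp2-high arrays (r = -0.676, permutation p = 0.0198, adjusted p = 0.0712). Without the 2 arrays with the most Fos its r was -0.166, and in the Pcp2-low arrays it was 0.144. Fos and Nr4a3 were close to unrelated (r = -0.028 and 0.095), as were Fos and Fosb in Pcp2-low arrays (r = -0.008).

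**Figure D4:**
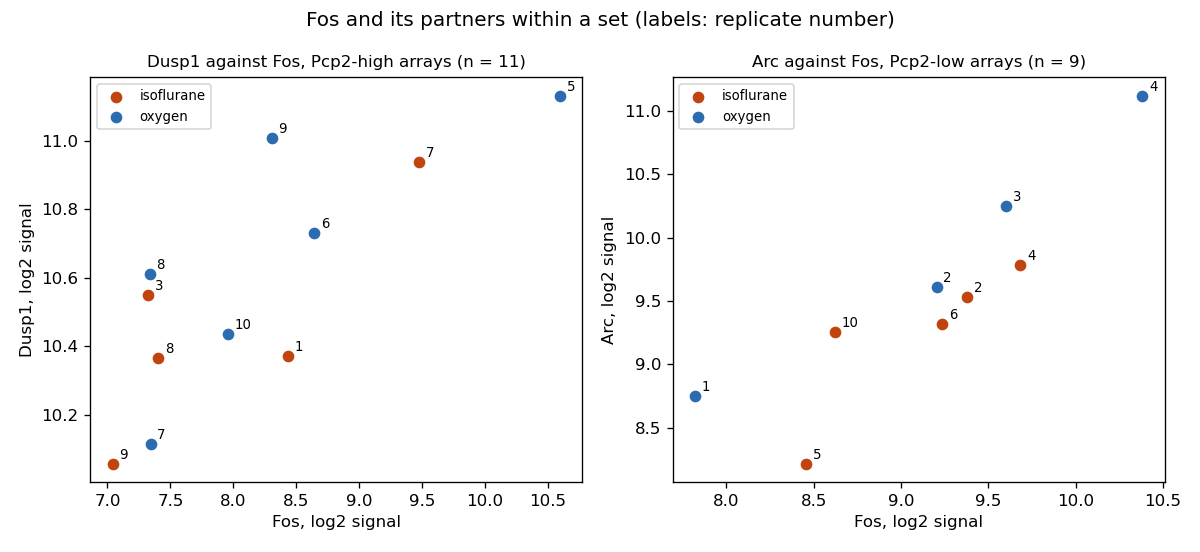
Log2 signal of Dusp1 against Fos on the 11 Pcp2-high arrays (left) and of Arc against Fos on the 9 Pcp2-low arrays (right), isoflurane and oxygen arrays in separate colours, each point 1 array with its replicate number. Higher Fos goes with higher Dusp1 on the left and higher Arc on the right, with oxygen replicate 5 highest on the left and oxygen replicate 4 highest on the right.

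Other genes of the activity response were taken from 5 lists, of which 45 of 59 genes had a tested probe set. After isoflurane over all 20 arrays, 2 rose and 4 fell (2.58% and 4.79% of all probe sets), with a median of -0.07 in log2 terms against 0.00 over all probe sets. All 4 falls and 1 rise were among upstream regulators and effectors: Mrtfa, the actin-sensing coactivator of SRF (-0.47 ± 0.10 SE, adjusted p = 0.0144), Elk4, an SRF partner (-0.41 ± 0.11 SE, adjusted p = 0.0318), Mef2d, a factor of activity-driven transcription (-0.35 ± 0.11 SE, adjusted p = 0.0492), and Vgf, a secreted neuropeptide precursor (-0.56 ± 0.16 SE, adjusted p = 0.0399), with the calcium-dependent kinase gene Camk4 higher (0.62 ± 0.17 SE, adjusted p = 0.0328). Fbxo33 rose by 0.27 ± 0.07 SE (adjusted p = 0.0218). Without isoflurane replicates 2, 4, 5 and 6 none of the 6 passed, but 0 of all 18625 probe sets did, so that fit cannot set these genes apart. Mrtfa was then -0.36 (adjusted p = 0.192) and Vgf -0.59 (adjusted p = 0.21). Only Mrtfa kept its call whichever single array was left out. None of the 45 genes passed with the Gapdh 3′/5′ ratio or with the cortical marker mean in the model, and 12 did without isoflurane replicate 9. Of all 18625 probe sets, 3 passed with the Gapdh ratio, 122 with the cortical marker mean and 2938 without isoflurane replicate 9.

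In Pcp2-low arrays 3 of the 45 rose and 5 fell (14.1% and 10.9% of all probe sets). Srf, the factor of the CArG box, fell by 0.41 on the log2 scale (adjusted p = 0.012), as did Mrtfa (-0.70, adjusted p = 0.00165), Elk4 (-0.52, adjusted p = 0.025), Mef2d (-0.47, adjusted p = 0.0314) and the ERK phosphatase gene Dusp6 (-0.62, adjusted p = 0.0102). The growth arrest and DNA damage gene Gadd45b rose by 0.67 (adjusted p = 0.00762), the synaptic scaffold gene Homer1 by 0.48 (adjusted p = 0.0272) and Fbxo33 by 0.39 (adjusted p = 0.00544). Without the 4 arrays that stood apart 1 isoflurane array is left in the set, so that fit cannot decide on these 8 genes. With the beta-actin 3′/5′ ratio in the model 2 of the 45 passed and no rise did, where 2009 of 18625 probe sets passed. These were the falls of Mrtfa (-0.77, adjusted p = 0.0133) and Srf (-0.54, adjusted p = 0.0156). With the Gapdh ratio 4 of the 45 passed, where 3687 of 18625 probe sets did. Of these 4 genes, 2 rose (Gadd45b and Fbxo33) and 2 fell (Mrtfa and Dusp6). Among other family members over all 20 arrays, Egr4 had -0.39 ± 0.15 SE (adjusted p = 0.0998), Egr3 0.27 ± 0.17 SE (0.315) and Nr4a2 -0.16 ± 0.14 SE (0.468). In Pcp2-high arrays none of the 45 passed (0 called of 18625, with 2351 at an unadjusted p under 0.05). With array weights 6 did (1 higher, 5 lower), where 1750 of 18625 probe sets did. Without isoflurane replicate 9 there were 4 (2 higher, 2 lower), where 1065 of 18625 passed. In the interaction 1 of the 45 passed, Gadd45b (-0.80 ± 0.23 SE, adjusted p = 0.0321, where 10.2% of all probe sets did). That call was lost when any of 9 single arrays was left out.

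Between the sets, 14 of these 45 genes were lower on every Pcp2-high array (9.34% of all probe sets above the filter) and 3 were higher (9.47%). The family members Egr4 (-1.88) and Nr4a2 (-1.51) were among the 14, as were Vgf (-2.57) and Homer1 (-1.85), while Dusp5, a phosphatase of nuclear ERK, was 2.68 higher.

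The genes most like the mean of the 10 members, over 20 arrays of values centred on the mean of their group and set, were Cyp4v3 (r = 0.848), Nudt19 (0.784), Pxmp4 (0.773), Fuca1 (0.77), Mesd (0.757), Pygb (0.751), Tmem141 (0.741) and Tmem186 (0.74), of 10307 genes ranked. For Cyp4v3 r was 0.884 within Pcp2-high and 0.814 within Pcp2-low arrays. Each point shares its array, and with it the array's RNA quality and scaling. The members themselves followed the mean of the other 9 unevenly, from 0.648 for Nr4a1 and 0.605 for Dusp1 to -0.008 for Fosb and -0.17 for Jun.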

How the data were processed

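The intensity values were deposited by the authors as linear signals, 1 per probe set and array, for which the submitters' processing notes name MAS5 and Affymetrix Expression Console. Their versions and settings are not given in the sources used here. Each array's signals had been scaled to a trimmed mean of 500.1 to 500.2. From the labels' protocols, RNA was isolated with TRIZOL and columns and hybridised as biotin-labelled cRNA. Controls left out, the platform annotation named a single gene on 20826 probe sets and more than one on 436, and it left 9780 unnamed.

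Signals were floored at 1 and taken to log2 with no further normalization. The 18625 probe sets whose mean passed the 40th percentile of all means were tested in R 4.3.3 by limma 3.58.1 (trended eBayes on lmFit, two-sided, Benjamini-Hochberg adjustment over all, threshold 0.05), for isoflurane against oxygen with array set as a term, within each set, and for the difference between sets. The self-test on simulated data was run first. Correlations with Fos used scipy 1.17.1. The number of arrays limits the precision, and signals give no read depth. The 10 pairs of arrays with the same number had deviations that correlated at -0.26 to 0.23, 2 of them over 0.1. Only 5 of the pairs had both arrays in 1 set, and the others compare different tissues, so pairing is not excluded. The numbers were not taken to pair the rats. The rule for named genes was every member, the activity genes past the threshold or lowest in p in their list, and the 8 genes most alike. The members and lists were chosen with earlier results of these data known. Alternatives were other scalings, pseudocounts, filters, covariates, probe set rules and each array left out. The beta-actin and cortical marker covariates were added after seeing the data.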

Additional observations from a re-analysis of the deposited data

Results flagged for a closer look

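The change of Gadd45b after isoflurane differed between the sets by the test of the difference itself, by -0.80 in log2 terms (Pcp2-high minus Pcp2-low, limma, adjusted p = 0.0321). It was called in Pcp2-low arrays (0.67, adjusted p = 0.00762) and not in Pcp2-high arrays. Without isoflurane replicates 2, 4, 5 and 6 the difference was -0.43. That fit has 1 isoflurane array left in the Pcp2-low set, so it cannot decide on the call.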

How the results depend on the processing

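Over all 20 arrays, the 1372 probe sets called became 29 with the replicate block, 3 with the Gapdh 3′/5′ ratio, 122 with the cortical marker mean, 74 with no array set and 903 with Pcp2 as a covariate. Without isoflurane replicates 2, 4, 5 and 6 the count was 0, with 3016 at an unadjusted p under 0.05. Members past the threshold were 1, Nr4a3, with arrays centred on their medians, a pseudocount of 64, the 60th percentile filter or each gene's probe sets averaged. In Pcp2-high arrays array weights gave 1750 with 1 member (Egr1), and no filter gave 1. In Pcp2-low arrays the 4655 became 6985 with array weights, 2009 with the beta-actin ratio (1 member) and 23 without the 4 arrays (0 members), with 5 members under centring and 1 with the mean of all probe sets. For the difference between sets the 1897 became 3899 with centring (2 members), 1037 with the 60th percentile filter, 5815 with array weights (2 members), 1129 with the replicate block (1 member, Junb, 1.61, adjusted p = 0.0333), 2 with the beta-actin ratio and 13 without the 4 arrays. The replicate block changed no other call of a member. Of the activity genes it ended the calls of Fbxo33, Mef2d, Camk4, Elk4 and Mrtfa over all arrays, of Fbxo33 and Srf in Pcp2-low arrays and of Gadd45b in the difference.

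With 1 array left out, the counts ran from 480 (without oxygen 4) to 2938 (without isoflurane 9) over all arrays with 0 to 3 members, from 0 to 1065 (without isoflurane 9) in Pcp2-high arrays with 0 members, from 3257 to 6389 in Pcp2-low arrays with 2 to 4 members, and from 1109 (without isoflurane 2) to 4303 (without isoflurane 10) for the difference with 0 to 1 member. Over all arrays the count was also moved by over 1.5 times without oxygen 2 (668) or 3 (774), or isoflurane 1 (854), 2 (723), 3 (799), 4 (646), 5 (632), 6 (794) or 8 (801). For the difference it was so without oxygen 3 (1234) or 4 (1173), or isoflurane 4 (1163), 6 (1161) or 7 (1248).

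Signs turned only for changes that passed no threshold. Over all arrays these were Jun with the mean of its probe sets (0.0232), and Egr2 with the cortical marker mean (0.0098) or no set (0.12). In Pcp2-high arrays Fos turned with the replicate block (0.0788), Jun with the mean of its probe sets (0.0609), Junb with quantile normalization (0.0165), centring (0.018), the block (0.32) or the cortical marker mean (0.0554), and Egr2 with centring (0.0273), array weights (0.0303), the block (0.32), the Gapdh ratio (0.0393), the beta-actin ratio (0.0577) or the cortical marker mean (0.25). In Pcp2-low arrays Fosb turned with the block (0.28), Egr1 with quantile normalization (0.051), array weights (0.0964), the Gapdh ratio (0.11) or the cortical marker mean (0.0377), and Dusp1 with the beta-actin ratio (0.0504) or without the 4 arrays (0.0804). The difference between sets of Nr4a3 turned with the mean of its probe sets (-0.26). With 1 array left out, signs also turned in Pcp2-high arrays for Fos (-0.81 to 0.021), Junb (-0.13 to 0.0822) and Egr2 (-0.12 to 0.16), and in Pcp2-low arrays for Fos (-0.65 to 0.20), Egr1 (-0.0948 to 0.10) and Egr2 (-0.60 to 0.0036). The cause was not tested for any of these. Of the single-gene values under the other alternatives, 659 kept sign and side, 74 lost a call and 11 gained one.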
